A study of Mus musculus with 8 samples.

Results

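The genes described here are 10 regulators of the G1 phase of the cell cycle: the D-type cyclin genes Ccnd1, Ccnd2 and Ccnd3, the E-type cyclin genes Ccne1 and Ccne2, the kinase gene Cdk4, and the kinase inhibitor genes Cdkn1a, Cdkn1b, Cdkn2a and Cdkn2b. They were chosen by name from a fixed list, with earlier results of these data known, and all 10 were found among the 47434 genes of the series. The series holds 8 poly-A RNA-seq libraries of Hepa 1-6, an established mouse hepatoma line. In 4 of them G9a, the histone H3 lysine 9 methyltransferase encoded by Ehmt2, was knocked out, and the other 4 are labelled wild type. The sources used here do not say how the knockout was made, whether it was 1 clone or a pool, or whether each library was a culture of its own. The p-values therefore measure the spread between these libraries, which may be technical. The comparison asked which of these genes change in the knockout.

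D-type cyclins bind CDK4 or CDK6, and the resulting kinases start to phosphorylate the retinoblastoma protein RB, which holds E2F transcription factors in check. E-type cyclins bind CDK2 and complete this step, so that genes for DNA replication can be transcribed. Inhibitors of the Cip/Kip family, encoded by Cdkn1a (p21), Cdkn1b (p27) and Cdkn1c (p57), act on complexes of several cyclins. Inhibitors of the INK4 family, among them the products of Cdkn2a (p16) and Cdkn2b (p15), bind CDK4 and CDK6 alone. Through a different first exon, Cdkn2a also encodes ARF, which stabilizes p53. In liver, cyclin D1 is known as a driver of hepatocyte proliferation after injury, and loss of the Cdkn2a and Cdkn2b locus is common in tumor cell lines.

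Library totals lay between 58256100 and 75025236 counts. Ehmt2 was at 116.7 to 119.8 CPM (counts relative to library size, scaled with TMM factors) in the knockout libraries and at 297.6 to 345.4 CPM in the wild-type libraries. Of 10 hepatocyte marker genes 6 had 0 counts in all libraries, among them Alb, so these hepatocyte genes were absent in both groups. The list's summed level was 6.01 to 7.31 CPM of the library total in the wild type and 122.6 to 148.4 CPM in the knockout, where Afp made up nearly all of it. Fibroblast and stellate cell markers summed to 106 to 117 and 446 to 475 CPM, mostly Col3a1, with Lum at 0. Macrophage markers summed to 26.6 to 31.6 and 26.3 to 30.1 CPM with Adgre1 at 0, and endothelial markers to 2.58 to 4.2 and 5.01 to 6.78 CPM. The part of these differences in the results below was not tested. In bulk RNA, fewer cells that express a gene and less RNA per cell cannot be told apart.

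Of the 10 genes, 8 had enough counts to be tested, and 6 of these differed between knockout and wild type at an adjusted p under 0.05 (edgeR's quasi-likelihood test, Benjamini-Hochberg adjustment over all genes tested). Only Ccnd1 rose, and Ccnd2, Ccne1, Cdk4, Cdkn1a and Cdkn1b fell. Ccnd3 and Ccne2 did not pass, and Cdkn2a and Cdkn2b had no counts at all. Over all 15840 genes tested, 47.2% were called, 23.6% higher and 23.6% lower, so the share called among the members has to be read against a frequent event. The members were also chosen with earlier results of these data known, so they are not an unselected sample of genes. The split of the calls depended on the scaling: it was 3742 higher and 3734 lower with TMM, and 4543 and 2742 when only library sizes were used. The groups did not overlap for the same number of members, 6, against 43.9% of all genes tested. The median log2 fold change (knockout over wild type) of the 8 tested members was -0.17, against 0.00369 for all genes. Tested against a change of 1.5-fold rather than against no change, 10.5% of all genes and only Ccnd2 among the members passed.

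**Figure D1:**
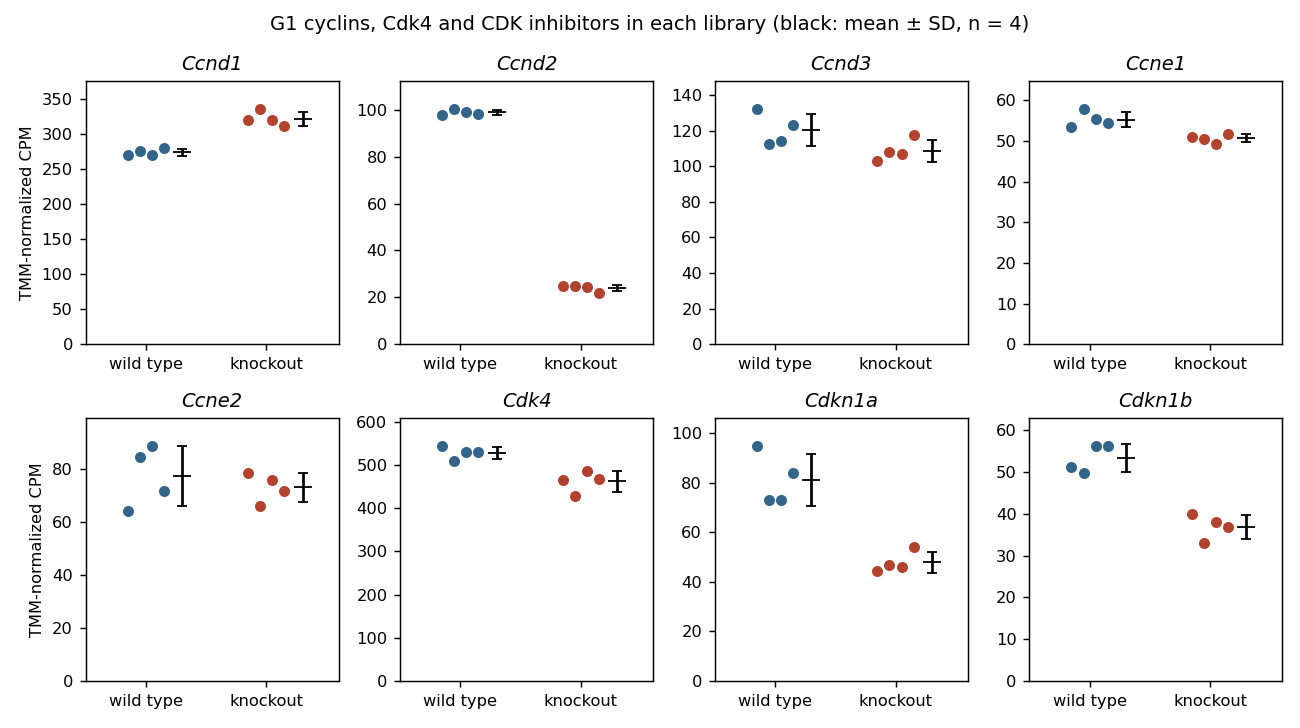
TMM-normalized CPM of the 8 tested genes in each of the 4 wild-type (blue) and 4 knockout (red) libraries, with the mean and SD of each group in black, every axis starting at 0. Ccnd2 falls from about 98.8 to 24.0 CPM with no overlap, Cdkn1a and Cdkn1b are also lower in every knockout library, and Ccnd3 and Ccne2 overlap between the groups.

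The D-type cyclin genes went separate ways. Ccnd2 (ENSMUSG00000000184, GRCm38 chromosome 6, 127125162 to 127152193, minus strand) was at 97.7, 100.2, 99.1 and 98.3 CPM in the wild-type libraries and at 24.9, 24.6, 24.3 and 21.98 CPM in the knockout libraries. Each knockout library was far below each wild-type library, and the libraries of a group lay close together. Ccnd2 was 4.12-fold lower, a log2 fold change of -2.04 ± 0.05 (SE, n = 4 per group; edgeR, adjusted p = 1.49e-11). This was the largest change among the members. Nearly all Ccnd2 counts were assigned to its full-length coding transcript Ccnd2-201, 99.4% ± 0.46 in the knockout and 99.5% ± 0.26 in the wild type (SD, n = 4).

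Ccnd1 (ENSMUSG00000070348, chromosome 7, 144929931 to 144939925, minus strand), the most abundant cyclin gene here, moved the opposite way. Its levels were 269.3, 275.2, 270.2 and 279.4 CPM in the wild type and 319.7, 335.0, 319.2 and 310.7 CPM in the knockout. All knockout libraries lay above all wild-type libraries. The difference was small, 1.17-fold higher (log2 fold change 0.23 ± 0.04, edgeR, adjusted p = 0.000354). Ccnd3 (ENSMUSG00000034165, chromosome 17, 47505051 to 47599691, plus strand) stood at 132.0, 112.4, 114.4 and 122.9 CPM in the wild type and 102.7, 108.2, 106.7 and 117.5 CPM in the knockout, and knockout replicate 4 lay within the wild-type range. Its log2 fold change was -0.15 ± 0.06 (edgeR, adjusted p = 0.0628), with a 95% interval from -0.27 to -0.03. The gene passed without knockout replicate 4 (adjusted p = 0.0304), without wild-type replicate 2 (0.0408) and with protein-coding transcripts alone (0.0128).

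Levels of different genes were set side by side per length, as TPM (transcript counts per kilobase, scaled to a common total) computed from the counts and the annotated transcript lengths. The D-type genes together held 291 ± 11.4 TPM in the wild type and 294 ± 11.2 TPM in the knockout (SD, n = 4), and the ranges of 279 to 305 and 283 to 310 TPM overlapped. TPM carries no TMM factors (1.02 to 1.04 in the knockout, 0.97 to 0.98 in the wild type). From wild type to knockout, mean CPM went from 98.8 to 24.0 for Ccnd2, 273.5 to 321.1 for Ccnd1 and 120.4 to 108.8 for Ccnd3. The level sum was thus seen in TPM and not in CPM, which is not weighted by length. The makeup of the TPM sum differed. Ccnd2 made up 10.8% ± 0.56 of the D-type sum in the wild type (10.2% to 11.5%) and 2.81% ± 0.07 in the knockout (2.73% to 2.88%). Ccnd1 took 49.3% ± 1.76 and 60.1% ± 1.92, and Ccnd3 took 39.9% ± 2.22 and 37.1% ± 1.89. Per length, the 3 genes kept the order Ccnd1, Ccnd3, Ccnd2 in both groups, with no overlap between neighbors in that order.

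**Figure D2:**
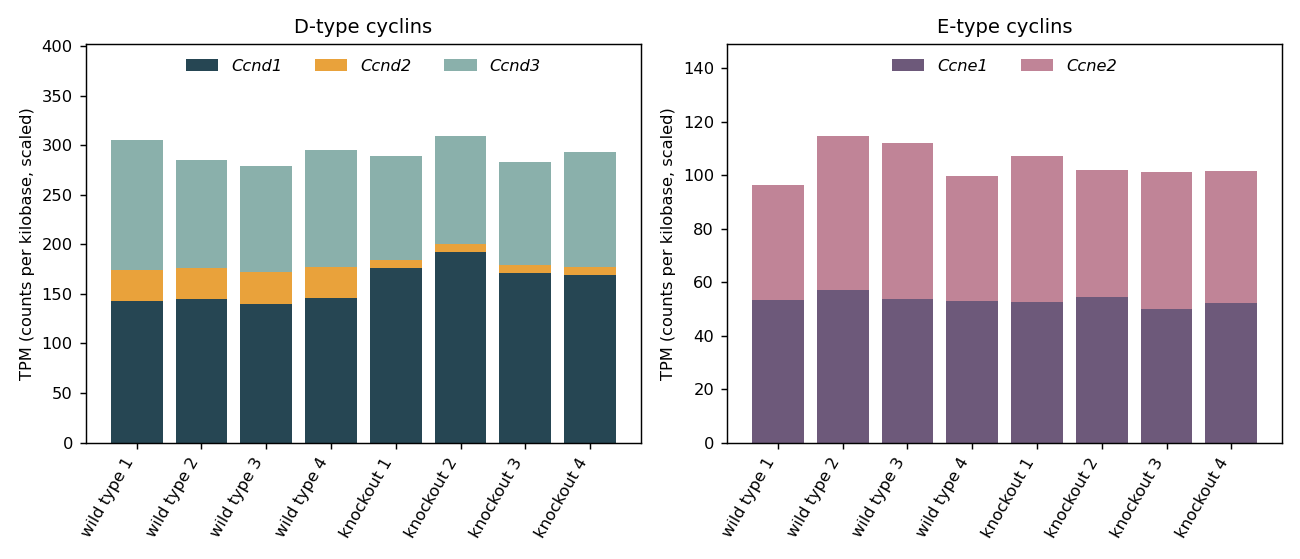
Stacked TPM of the D-type (left) and E-type (right) cyclin genes in each wild-type and knockout library. The height of the D-type bars stays between 279 and 310 TPM in all 8 libraries, with no TMM factors applied. The Ccnd2 segment shrinks and the Ccnd1 segment grows in the knockout. The E-type bars are split about evenly in both groups.

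Cdk4 (ENSMUSG00000006728, chromosome 10, 127063534 to 127067920, plus strand), the kinase partner of the D-type cyclins, was the most abundant member per length, at 528 ± 17.1 TPM in the wild type and 484 ± 12.7 TPM in the knockout. Its levels were 544.5, 509.8, 530.4 and 530.1 CPM in the wild type and 464.7, 428.7, 486.3 and 468.8 CPM in the knockout, without overlap. The decrease was 1.14-fold (log2 fold change -0.19 ± 0.05, edgeR, adjusted p = 0.00303). Its promoter, as RefSeq places it on GRCm38.p6, is shown because it holds the hexamer CACGTG, the E-box bound by MYC and related factors, 4 times, against 7.15% of 32851 promoter windows of the same 300 bases that hold it at all. The window runs from 250 bases before to 50 after the start and reads 5′ to 3′ on the gene's own strand. Capitals mark E-boxes (CACGTG, the same on both strands) and GC boxes (GGGCGG, searched on both strands), and 2 of the 3 GC boxes overlap.
Cdk4 promoter, chr10:127063285-127063584, plus strand: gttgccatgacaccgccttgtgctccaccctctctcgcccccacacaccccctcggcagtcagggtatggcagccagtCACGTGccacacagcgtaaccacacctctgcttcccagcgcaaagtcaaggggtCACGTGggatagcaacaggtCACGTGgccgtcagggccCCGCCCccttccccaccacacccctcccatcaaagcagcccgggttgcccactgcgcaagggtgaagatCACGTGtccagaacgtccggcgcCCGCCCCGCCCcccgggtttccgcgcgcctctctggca
Myc itself was at 3.42 ± 0.53 CPM in the wild type and 3.14 ± 0.62 CPM in the knockout (edgeR, adjusted p = 0.6). A match of letters is no evidence that a factor binds there.

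The split of Cdk4 counts over its annotated transcripts differed more than their sum. The coding transcript Cdk4-201 held 90.6%, 91.0%, 91.2% and 92.9% of Cdk4 counts in the knockout libraries but 56.4%, 57.7%, 82.3% and 83.4% in the wild-type libraries. The retained-intron transcript Cdk4-207, of 2038 bases against 2053 for Cdk4-201, held 3.77% to 5.43% in the knockout and 39.0%, 38.2%, 14.1% and 12.9% in the wild type. The groups did not overlap, yet wild-type replicates 1 and 2 stood apart from replicates 3 and 4. An exact permutation test of the Cdk4-201 share gave p = 0.0286, the smallest that 4 against 4 allows, and 0.2 after Benjamini-Hochberg adjustment over the 7 members with at least 2 transcripts, so the call was not made. When protein-coding transcripts alone were summed, Cdk4 no longer passed and its log2 fold change turned to 0.19 (edgeR, adjusted p = 0.228). With wild-type replicates 1 and 2 also left out it was -0.05 (edgeR, adjusted p = 0.514). The lower Cdk4 level thus holds for the sum of all its transcripts and was not seen for the coding ones.

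**Figure D3:**
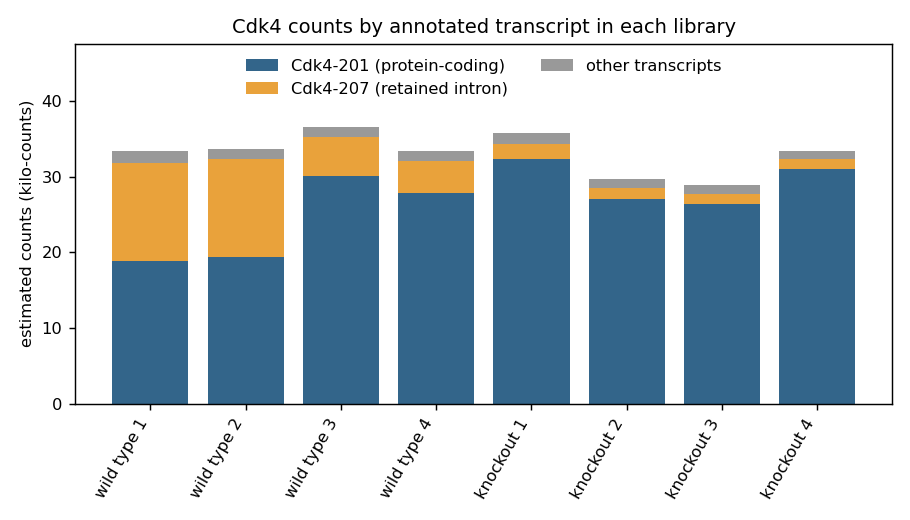
Estimated counts of Cdk4, stacked by annotated transcript, for each wild-type and knockout library; these are not scaled for library size, and the axis is in kilo-counts. The segment of the retained-intron transcript Cdk4-207 makes up about 39% of the bar in wild-type libraries 1 and 2, 12.9% to 14.1% in wild-type libraries 3 and 4 and 3.77% to 5.43% in the knockout.

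The E-type cyclin genes differed little. Ccne1 (ENSMUSG00000002068, chromosome 7, 38097984 to 38107534, minus strand) was at 53.4, 57.8, 55.5 and 54.4 CPM in the wild type and 50.9, 50.5, 49.4 and 51.7 CPM in the knockout. Every knockout library was lower, by little: the log2 fold change was -0.13 ± 0.05 (edgeR, adjusted p = 0.0423). This call was weak, since only 3 of 21 alternative settings kept it, and 1 of the 8 fits that left out a library did. Ccne2 (ENSMUSG00000028212, chromosome 4, 11191351 to 11204779, plus strand) was at 64.2, 84.4, 88.7 and 71.6 CPM in the wild type and 78.7, 66.0, 75.9 and 71.7 CPM in the knockout. The groups overlapped, with a log2 fold change of -0.08 ± 0.09 (edgeR, adjusted p = 0.512) and a 95% interval from -0.26 to 0.10. Per length both E-type genes lay at the same level: Ccne1 held 51.6% ± 3.27 of their sum in the wild type and 50.7% ± 2.01 in the knockout.

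Both Cip/Kip inhibitors among the members fell. Cdkn1a (ENSMUSG00000023067, chromosome 17, 29090976 to 29100727, plus strand), whose product p21 is the classical p53-induced brake on CDK2, was at 94.96, 73.0, 72.9 and 84.1 CPM in the wild type and at 44.3, 47.0, 46.0 and 54.2 CPM in the knockout. The groups were well apart, although the wild-type libraries varied more than those of Ccnd2. Cdkn1a was 1.70-fold lower (log2 fold change -0.76 ± 0.09, edgeR, adjusted p = 1.06e-05), and against a change of 1.5-fold it did not pass (adjusted p = 0.0755). Trp53, which encodes p53, also fell, from 375 ± 19.5 to 320.2 ± 9.07 CPM (log2 fold change -0.23 ± 0.05, edgeR, adjusted p = 0.00107). With the median shift of genes within 5 Mb taken out, its value was -0.16 (edgeR, adjusted p = 0.0136). Whether the Trp53 and Cdkn1a changes are linked was not tested. Cdkn1b (ENSMUSG00000003031, chromosome 6, 134920401 to 134925513, plus strand), whose product p27 restrains cyclin E with CDK2 and also rides on cyclin D complexes, was at 51.3, 49.9, 56.2 and 56.3 CPM in the wild type and 39.9, 33.1, 38.0 and 36.9 CPM in the knockout. It was lower in each knockout library, 1.44-fold on average (log2 fold change -0.53 ± 0.07, edgeR, adjusted p = 2.325e-05).

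The promoter windows of these inhibitors are shown because the data separate the Cdkn1a starts and because both genes fell. Capitals mark GC boxes (GGGCGG) and CCAAT boxes, each on both strands, and the p53 half-site core ACATGT, which is the same on both strands and was added to the search after the sequences were seen. No marked motifs overlap in these 3 windows.
Cdkn1a, distal start, chr17:29090729-29091028, plus strand: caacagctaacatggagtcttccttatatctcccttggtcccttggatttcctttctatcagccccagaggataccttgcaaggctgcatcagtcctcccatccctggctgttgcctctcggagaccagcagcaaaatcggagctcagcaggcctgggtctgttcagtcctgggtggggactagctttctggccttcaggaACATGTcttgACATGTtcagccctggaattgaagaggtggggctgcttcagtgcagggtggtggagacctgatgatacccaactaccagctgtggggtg
Cdkn1a, proximal start, chr17:29093519-29093818, plus strand: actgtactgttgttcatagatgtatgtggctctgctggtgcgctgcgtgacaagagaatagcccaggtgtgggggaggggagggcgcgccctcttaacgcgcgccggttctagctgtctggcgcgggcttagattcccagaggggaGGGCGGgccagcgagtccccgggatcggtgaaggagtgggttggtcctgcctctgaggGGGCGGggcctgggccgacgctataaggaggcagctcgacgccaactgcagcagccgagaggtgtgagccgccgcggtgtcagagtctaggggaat
Cdkn1b, chr6:134920151-134920450, plus strand: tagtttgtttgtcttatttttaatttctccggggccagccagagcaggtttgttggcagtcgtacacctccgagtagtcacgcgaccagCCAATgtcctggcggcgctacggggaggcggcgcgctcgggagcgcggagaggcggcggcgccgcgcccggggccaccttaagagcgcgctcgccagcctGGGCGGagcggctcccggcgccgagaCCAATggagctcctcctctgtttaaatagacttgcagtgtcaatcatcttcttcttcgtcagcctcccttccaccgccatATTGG
Nearly all Cdkn1a counts belonged to the transcript of the proximal start, Cdkn1a-201, with 2715 to 5779 counts per library, whereas Cdkn1a-202, which begins at the distal start, had 1 to 14. The distal window holds ACATGT 2 times, and 5.28% of all promoter windows hold it at least once. Since this motif was added after the window was seen, that share cannot tell how unusual the match is. Whether these copies act on the distal or the proximal start was not tested. The distal window has 2 CpG dinucleotides and no GC box. The proximal window has 23 CpG and 2 GC boxes, and the Cdkn1b window has 30 CpG, 1 GC box and 3 CCAAT boxes. Over all windows the median was 7 CpG, 35.7% held a GC box and 37.4% a CCAAT box. Neither form of the E2F motif searched (TTTCGCGC and TTTGGCGC, both strands) was found in the 10 windows available for 7 of the members. Only 0.32% and 0.51% of all windows held these exact letters, so their absence does not set the 10 windows apart. Looser forms of an E2F site were not searched. Windows were not matched for Ccnd1, Ccnd2 and Ccne2.

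No RNA of the INK4 members was counted in either group. Cdkn2a (ENSMUSG00000044303, chromosome 4, 89274471 to 89294653, minus strand) and Cdkn2b (ENSMUSG00000073802, chromosome 4, 89306299 to 89311039, minus strand) had 0 counts in each of the 8 libraries. A count of 0 allows up to 3 counts per library, which is 0.04 to 0.0515 CPM, so a knockout effect on them was not detectable and no fold is given. For Cdkn2a this held for both annotated transcripts, Cdkn2a-201 from the p16 start and Cdkn2a-202 from the ARF start. A count of 0 in all libraries was not rare: it was found for 5821 of 21792 protein-coding genes (26.7%). The neighbor Mtap, a purine salvage gene often lost together with this locus in tumors, was well expressed, at 219.7, 241.5, 232.6 and 228.6 CPM in the wild type and 226.6, 213.6, 229.2 and 206.0 CPM in the knockout (edgeR, adjusted p = 0.231). Between Mtap and Cdkn2a the noncoding gene Gm12606 had 7 to 56 counts in every library. In the same stretch the small RNA gene Gm26490 had 0 to 9 counts, and the pseudogene Tgif2-ps1 was at 0 in all libraries. On the other side, Gm12609 was at 0 in all libraries, Gm12610 at 0 to 11 counts and Dmrta1 at 0 to 4. Of the 38 genes annotated within 500 kb of the pair, the pair included, 10 were at 0 throughout, 6 of them interferon alpha genes. RNA counts do not tell a deleted gene from a silent one, and a deletion was not tested.

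The reference windows at these starts, which had no counts, are shown beside those of the inhibitors with counts, with GC and CCAAT boxes in capitals; in the p16 window a GC box and a CCAAT box overlap.
Cdkn2a, p16 start, chr4:89282143-89282442, minus strand: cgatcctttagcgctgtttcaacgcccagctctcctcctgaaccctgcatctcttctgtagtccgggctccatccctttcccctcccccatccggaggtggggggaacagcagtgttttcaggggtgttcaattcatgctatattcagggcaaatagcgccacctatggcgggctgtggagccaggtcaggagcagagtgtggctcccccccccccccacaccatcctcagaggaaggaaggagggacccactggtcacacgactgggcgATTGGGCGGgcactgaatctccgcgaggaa
Cdkn2a, ARF start, chr4:89294570-89294869, minus strand: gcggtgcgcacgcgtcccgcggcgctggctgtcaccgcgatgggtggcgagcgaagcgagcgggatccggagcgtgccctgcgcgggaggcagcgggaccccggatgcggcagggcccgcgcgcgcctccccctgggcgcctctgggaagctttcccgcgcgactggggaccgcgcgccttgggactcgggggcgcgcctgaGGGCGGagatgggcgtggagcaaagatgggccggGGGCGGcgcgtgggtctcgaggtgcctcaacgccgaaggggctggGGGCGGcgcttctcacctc
Cdkn2b, chr4:89310983-89311282, minus strand: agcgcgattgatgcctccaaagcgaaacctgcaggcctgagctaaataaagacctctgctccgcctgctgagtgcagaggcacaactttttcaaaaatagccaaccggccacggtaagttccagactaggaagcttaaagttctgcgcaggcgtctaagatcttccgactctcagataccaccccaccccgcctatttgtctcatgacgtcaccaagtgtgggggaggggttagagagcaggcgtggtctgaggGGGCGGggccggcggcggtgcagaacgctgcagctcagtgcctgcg
They held 12, 45 and 18 CpG dinucleotides and 1, 3 and 1 GC boxes. Their range spanned the CpG numbers of the Cdkn1a proximal and Cdkn1b windows (23 and 30), and the ARF window had the most CpG of all 10.

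Other inhibitors of the same families, from a list of partners and inhibitors, went both ways. Cdkn2c, which encodes the INK4 protein p18, was at 30.4, 32.2, 30.3 and 31.8 CPM in the wild type and 56.3, 50.9, 57.7 and 56.9 CPM in the knockout, with no overlap (log2 fold change 0.83 ± 0.06, edgeR, adjusted p = 7.70e-08). Cdkn2d, which encodes p19 of the INK4 family, was at 25.4 ± 1.72 CPM in the wild type and 26.6 ± 1.83 CPM in the knockout (edgeR, adjusted p = 0.467). Thus the INK4 genes with counts were Cdkn2c and Cdkn2d, and the first rose. Cdkn1c, the remaining Cip/Kip gene, fell from 5.41 ± 0.22 to 0.98 ± 0.20 CPM (log2 fold change -2.45 ± 0.17, edgeR, adjusted p = 9.23e-08), so all 3 genes of that family were lower in the knockout, with no overlap between groups for any of them. Over all genes tested, 23.6% were called lower and 43.9% did not overlap in either direction. Among kinase partners, Cdk6 fell from 59.2 ± 2.06 to 47.4 ± 2.36 CPM (log2 fold change -0.32 ± 0.05, edgeR, adjusted p = 0.000216; -0.19 and 0.0106 with the shift of its neighborhood taken out), and Cdk2 was at 83.4 ± 1.96 and 78.8 ± 2.06 CPM (adjusted p = 0.149). Of the 15 tested genes of this list 4 rose and 5 fell, with a median log2 fold change of -0.09.

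Downstream of the G1 kinases, 3 of 17 pocket protein and E2F genes rose and 5 fell (median log2 fold change -0.05). The 47.1% called was near the 47.2% of all genes, and the balance turned to 4 higher and 1 lower with library sizes alone and to 6 and 3 with neighborhood shifts taken out. Rb1, which encodes RB, was at 3.57, 5.13, 5.55 and 3.37 CPM in the wild type and 8.05, 8.43, 7.55 and 7.82 CPM in the knockout (log2 fold change 0.85 ± 0.15, edgeR, adjusted p = 0.000501). Its relative Rbl2 rose by 0.27 ± 0.07 on the log2 scale (edgeR, adjusted p = 0.00624), and E2f1, an activator of S phase genes, fell by 0.23 ± 0.05 (edgeR, adjusted p = 0.00406). E2f1 lies on chromosome 2 among 96 genes whose median log2 fold change was -0.61, and with that shift taken out its value turned to 0.38 (edgeR, adjusted p = 8.86e-05). Rbl1, also on chromosome 2, turned likewise from -0.17 (adjusted p = 0.0327) to 0.45 (adjusted p = 5.61e-05). Of 35 S phase genes 10 rose and 8 fell (median -0.02), against 15 and 5 with library sizes alone. Rfc5 and Rfc3, which encode subunits of the clamp loader, rose by 0.56 ± 0.04 and 0.61 ± 0.05 on the log2 scale (edgeR, adjusted p = 2.65e-07 and 5.71e-07). Both lie on chromosome 5, and with the shifts of their neighborhoods taken out they stayed called at 0.26 and 0.24 (adjusted p = 0.000363 and 0.0017). Pcna, the replication clamp, was at 424.8 ± 28.3 against 626 ± 21 CPM, again on chromosome 2, and did not pass with the shift taken out (log2 fold change -0.02, edgeR, adjusted p = 0.794). Of 26 mitosis genes 19 fell and 1 rose (median -0.22), and 12 and 4 with library sizes alone. The 76.9% called was above the 47.2% of all genes, of which 23.6% were called lower. The 4 mitosis genes with the lowest p, Aurka, Cdc25b, Bub1b and Tpx2, all lie on chromosome 2. With neighborhood shifts taken out, Aurka and Cdc25b stayed lower (log2 fold changes -0.23 and -0.19, edgeR, adjusted p = 0.000591 and 0.00339). Bub1b was then not called (0.03, adjusted p = 0.622), and Tpx2 turned higher (0.12, adjusted p = 0.0267). In that setting the mitosis list had 10 lower and 4 higher genes.

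Of 16 genes for the turnover of G1 cyclins and inhibitors 4 rose and 5 fell (median log2 fold change -0.04), where 23.6% of all genes went each way. The number lower was 2 with library sizes alone and also with neighborhood shifts taken out. Fbxo4, which encodes an F-box protein reported to direct cyclin D1 to degradation, rose from 13.1 ± 1.31 to 27.9 ± 0.50 CPM, and its cofactor gene Cryab from a range of 6.78 to 9.03 CPM to one of 18.7 to 21.6 CPM (edgeR, adjusted p = 1.01e-07 and 1.72e-07). The 16 neighbors of Fbxo4 had a median log2 fold change of 0.41, and with that shift taken out its value went from 1.09 to 0.68 (adjusted p = 1e-05). Ambra1, which encodes the adaptor that marks all D-type cyclins for degradation, fell from 83.0 ± 5.18 to 50.9 ± 2.60 CPM (adjusted p = 4.39e-07), and lost its call with the shift of its chromosome 2 neighborhood taken out (0.0859). Skp2, which encodes the F-box protein that targets p27, was at 138 ± 7.55 and 135.7 ± 2.57 CPM (adjusted p = 0.696), and passed as lower with the shift of its neighborhood taken out (log2 fold change -0.20, adjusted p = 0.00482). Of 36 upstream factors tested, 4 rose and 11 fell (median -0.10), and the 41.7% called was below the 47.2% of all genes. With library sizes alone 6 were higher and 9 lower, and with neighborhood shifts taken out 7 and 10. Sp1, whose product binds GC boxes, fell from 189.7 ± 10.2 to 137 ± 11.2 CPM (log2 fold change -0.47 ± 0.06, edgeR, adjusted p = 3.55e-05).

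Position was compared by the genes around each member. Within 5 Mb of Ccnd2, 51 other tested genes with at least 5 CPM had a median log2 fold change of 0.01 and ranged from -0.99 to 1.22, so all of them lay above Ccnd2. Near Cdkn1a, 3 of 167 genes had a lower value than its -0.76, and the median was -0.05. Near Cdkn1b 1 of 22 genes had a lower value, with a median of 0.03. Ccne1 lay among its neighbors, with 16 of 27 lower. They had a median of -0.15, and with that shift taken out its log2 fold change turned to 0.03 (edgeR, adjusted p = 0.682). The other members lay inside the range of their neighbors. Near Ccnd1, 15 of 58 genes had a higher value (median 0.03), and near Cdk4, 16 of 62 had a lower one (median 0.01). Both kept their calls with the shift taken out (log2 fold changes of 0.20 and -0.21). Near Ccnd3, 21 of 59 genes had a lower value, and its log2 fold change was -0.07 with the shift out (edgeR, adjusted p = 0.398). Near Ccne2, 7 of 26 had a lower value, and it was -0.04 with the shift out (edgeR, adjusted p = 0.748).

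**Figure D4:**
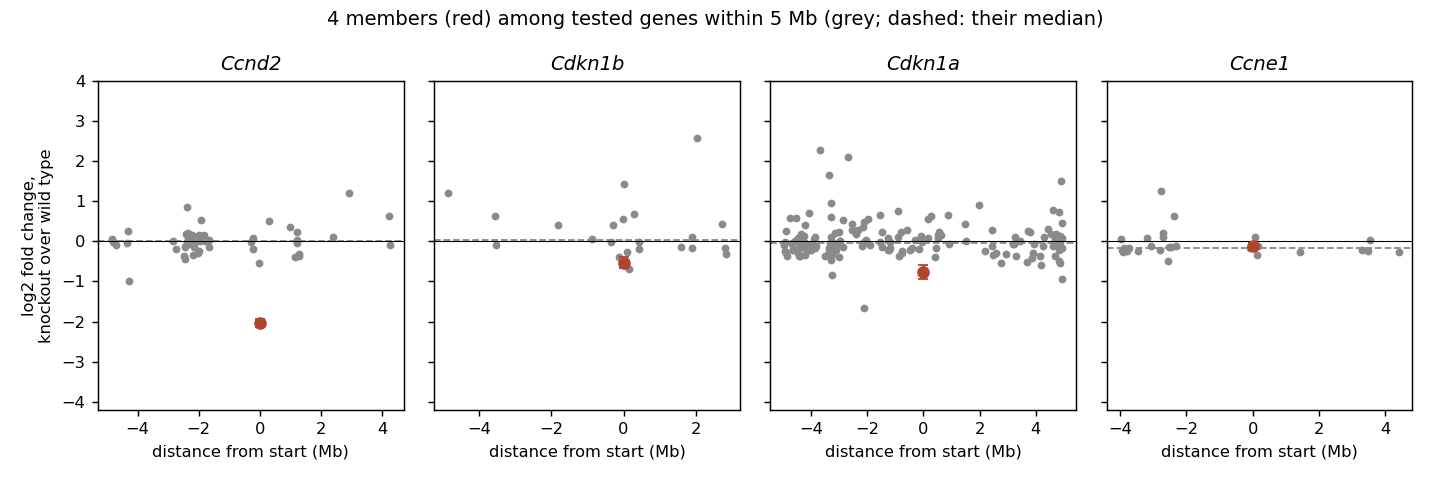
Log2 fold change (knockout over wild type) of Ccnd2, Cdkn1b, Cdkn1a and Ccne1 (red, bars 95% interval) and of the other tested genes with at least 5 CPM within 5 Mb (grey), against the distance between start sites in Mb, with the median of those genes as a dashed line. Ccnd2 lies below all 51 of its neighbors, whereas Ccne1, at -0.13, lies slightly above the median of its 27 neighbors, -0.15.

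**Figure D5:**
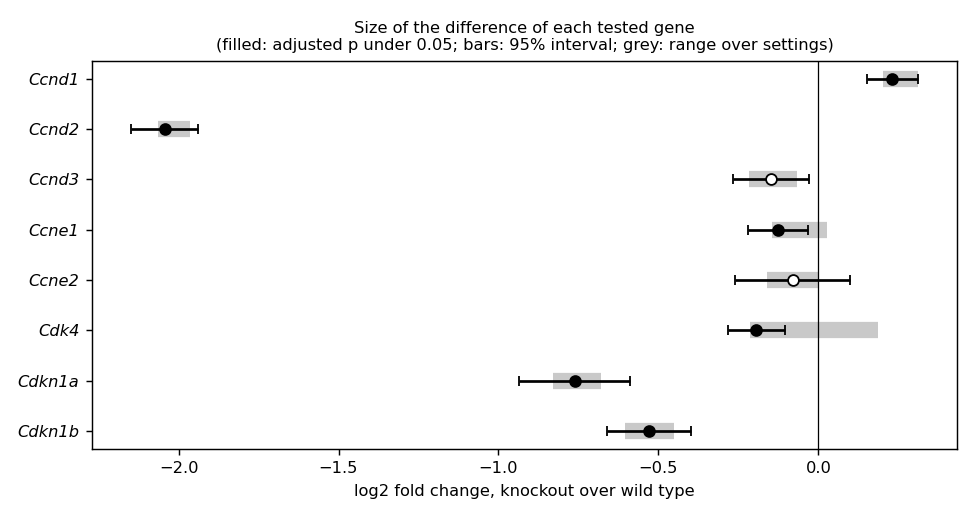
Log2 fold change of the 8 tested members with its 95% interval (n = 4 per group), filled where the adjusted p was under 0.05; grey bars give the range over the main setting and 21 alternatives. The bars of Ccnd2, Cdkn1a, Cdkn1b and Ccnd1 stay on 1 side of 0, and those of Cdk4 and Ccne1 reach across it. The bars of Ccnd3 (-0.22 to -0.07) and Ccne2 (-0.16 to -0.0004), which were not called, also stay on 1 side.

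In TPM, the members had the order Cdk4, Ccnd1, Ccnd3, Cdkn1a, Ccne1, Ccne2, Ccnd2, Cdkn1b in the wild type, in which Ccne1 overlapped Ccne2 and Ccnd2 overlapped Cdkn1b. In the knockout it was Cdk4, Ccnd1, Ccnd3, Ccne1, Cdkn1a, Ccne2, Cdkn1b, Ccnd2, where Ccne1, Cdkn1a and Ccne2, at 52.2, 51.2 and 50.8 TPM, could not be separated by their spread. Cdkn1a thus went from 82.8 ± 11.3 TPM, above both E-type cyclin genes, to their level. Ccnd2 went from 31.5 ± 0.47 TPM, level with Cdkn1b, to 8.27 ± 0.23 TPM, below Cdkn1b at 22.9 ± 2.86 TPM. The genes whose log2 CPM over the 8 libraries followed Ccnd2 most closely were Arl6ip1, Cwc22 and Tnfrsf21 (Pearson r = 0.9988, 0.9986 and 0.9986). With 2 groups this measure mainly reflects a step between them, and 1013 of 9131 genes compared had an r above 0.95.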

How the data were processed

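The labels' protocols name TRIzol extraction and a SMARTer poly-A library kit. Per the submitters' processing notes, FastQC, Trimmomatic and HISAT2 were used with GRCm38.p6. How reads were counted, on which strand and with which annotation is not given in the sources used. The deposited table holds estimated counts per transcript as whole numbers, not normalized, so no rounding was needed. Of 115220 transcripts 114332 (99.23%) matched GENCODE mouse release 21 and were summed to 47434 genes; the rest held 0.148% to 0.17% of the counts.

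Genes were tested with edgeR 4.0.16 (R 4.3.3) by the quasi-likelihood F test, two-sided, with TMM factors, filterByExpr and genotype as the only term. Each SE was derived from the fold change and its F statistic (absolute log2 value over root F). TPM was computed from transcript counts and lengths with every transcript weighted by its own length. The 95% intervals of fold changes reach 1.96 of these SEs to each side, and the SEs include the spread between libraries. This is the multiple of a normal distribution, so the intervals are somewhat narrower than the F test implies. Limits set by a count of 0 cover counting error alone. The neighborhood alternative subtracted, as an offset, the median log2 fold change of other genes with at least 5 CPM within 5 Mb. DESeq2 1.42.0, limma 3.58.1 (voom), other scalings and filters, a replicate block, single libraries left out and a test against 1.5-fold were alternatives, and the code was tested on simulated data. Members and lists were chosen with earlier results of these data known. The named genes were all members, Ehmt2, 13 partners, and up to 4 genes of each list with the lowest p at 5 CPM or more; not all are described. Promoter windows came from RefSeq on GRCm38.p6. Python 3.11.15 and SciPy 1.17.1 were used. One further marker list is not reported here.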

Additional observations from a re-analysis of the deposited data

How the results depend on the processing

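The fall of Ccnd2 kept its direction and call in all 21 alternatives (log2 fold change -2.06 to -1.96). Ccnd1, Cdkn1a and Cdkn1b kept theirs in 20 of 21, losing the call in the test against 1.5-fold, under which the number of members higher was 0 and lower 1. Without that test, 1 member was higher in every alternative and 4 or 5 were lower. Over the fits that left out 1 library, 1 was higher and 4 to 5 lower. The genes called lower were not always the same. Without knockout replicate 4, and without wild-type replicate 2, Ccnd3 was called lower and Ccne1 was not. With protein-coding transcripts only, Ccnd3 was called lower, and Cdk4 and Ccne1 were not called. Ccne1 lost its call in 17 alternatives, and in 1 its direction turned (0.027 with the neighborhood shift taken out). Cdk4 turned to 0.185 with protein-coding transcripts only. The cause of these changes was not tested. With the replicate number as a block, Ccne1 alone among the members lost its call (adjusted p = 0.0774) and 4 members were lower; over all genes 7255 were called against 7476. Libraries of the same number did not deviate together (correlations of -0.0226, -0.00184, 0.0751 and -0.0177), so the numbers were not taken to pair libraries.

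With library sizes alone, the genes called lower were 2 partners and inhibitors, 1 pocket protein or E2F gene, 2 turnover genes, 5 S phase genes and 12 mitosis genes, and 4 mitosis genes were higher. With the neighborhood shift taken out, an alternative chosen for the lists after seeing the data, the genes called lower were 3 partners and inhibitors, 3 pocket protein or E2F genes, 2 turnover genes, 5 S phase genes and 10 mitosis genes, and those called higher were 6 pocket protein or E2F genes, 7 upstream factors and 4 mitosis genes. Both alternatives that left out wild-type replicates 1 and 2 were also added after seeing the data. The share of the main transcript passed for 0 of 7 members with all libraries (exact permutation test), and 1, Cdk4, had an unadjusted p under 0.05. With 1 library left out the smallest possible p is 0.0571, so those fits say nothing about stability.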

Other observations

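Counts of Ccnd3 and Ccne2 were split over their transcripts in ways that varied between libraries of the same group. Ccnd3-205, a coding transcript from an internal start, held 11.4% to 55.6% of Ccnd3 counts in the knockout and 22.6% to 86.7% in the wild type. Ccnd3-215 held 0 counts in wild-type replicate 4 and 1525 to 3350 in the other wild-type libraries. Ccne2-202 held 16.4% to 57.9% of Ccne2 counts in the knockout and 18.6% to 75.4% in the wild type. The exact permutation tests of the Ccnd3-205 and Ccne2-202 shares gave p = 0.514 and 0.971 (two-sided, 4 against 4 libraries).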
